A study of Drosophila melanogaster with 4 samples.

Results

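Messenger RNAs of 32 genes of the PIWI-interacting RNA (piRNA) pathway were examined among the 17023 genes counted in ovary libraries of *Drosophila melanogaster*. The 32 members were given as a list of symbols, and all 32 matched a FlyBase identifier in the count tables. By their generally known sites of action, 14 members were placed in a germline-only class, such as *aub*, *AGO3* and *rhi*. The other 18 members, such as *piwi*, *armi* and *fs(1)Yb*, are used in the somatic cells of the ovary as well or, for *fs(1)Yb*, only there, and were placed in a soma-used class. No file used here gives these classes, and expression of germline-only members in ovarian soma was not tested. Members, classes and the gene lists below were chosen with earlier results of these data known.

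Ovaries of 2 genotypes were compared, each with 2 replicate libraries. The first genotype was UAS-Dicer2;NosGAL4 > *bam* RNAi with *aramis* RNAi added, called *aramis* RNAi ovaries from here on. The second was UAS-Dicer2;NosGAL4 > *bam* RNAi without it, called *bam* RNAi ovaries, which the labels describe as a developmental control. All 4 libraries therefore carry the Dicer2 transgene, the *nos* driver and the *bam* RNAi, and no library with intact *bam* was analysed here. The *nos* driver is active in germ cells, so the somatic cells of these ovaries are not its target, yet their RNA is part of every library. Bam starts the differentiation of the cystoblast, the daughter of the germline stem cell, and ovaries that lack it fill with undifferentiated germ cells. *aramis*, listed under its current symbol *ais*, encodes a DEAD-box RNA helicase. Flies were fed yeast and dissected 1 to 3 days after eclosion, and poly(A) RNA was sequenced. The labels do not say whether replicates came from separate sets of flies, so p-values measure the spread between these libraries, which may be technical.

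piRNAs are small RNAs that guide PIWI proteins to transposon transcripts. In germ cells, the Rhino, Deadlock and Cutoff proteins license transcription of heterochromatic piRNA clusters, and Aubergine and Argonaute3 amplify piRNAs by reciprocal cleavage (ping-pong) in nuage, a perinuclear granule. In the somatic cells of the ovary there is no ping-pong. There, precursors are gathered in Yb bodies, cut at the outer mitochondrial membrane by Zucchini and loaded into Piwi, which enters the nucleus and silences transposons in chromatin.

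Total counts were 11882367 and 12434452 in *aramis* RNAi ovaries and 12074934 and 13348602 in *bam* RNAi ovaries, so that 3 counts, taken as the floor, amount to 0.225 CPM in the deepest library and 0.252 CPM in the shallowest, where CPM is a count relative to all counts of its library. This floor covers counting error only, since PCR copies were not separated. The targeted gene *ais* had 149 and 161 counts in *aramis* RNAi ovaries, against 454 and 507 in *bam* RNAi ovaries (log2 fold change -1.37 ± 0.11, standard error (SE), edgeR adjusted p = 3.3e-04), whereas *bam* had 16 and 17 against 35 and 25 (log2 fold change -0.61 ± 0.42, SE, adjusted p = 0.262). The value of *ais* lay within the range of the germline markers given next. Cell type markers outside the pathway moved with genotype. All 6 tested germline markers (*nos*, *otu*, *ovo*, *bgcn*, *zpg*, *orb*) fell, with log2 fold changes between -2.35 and -1.26 and a median of -2.03, while *pgc* was too low to be tested, with 1 and 0 counts against 9 and 3. The 7 germline markers summed to 133 and 119 TPM (counts divided by exon length and scaled to the library) in *aramis* RNAi ovaries and 513 and 473 TPM in *bam* RNAi ovaries. Of 9 markers of somatic ovary cells 6 rose and 1, *tj*, fell (median 0.61, summed TPM 1290 and 1120 against 1016 and 912). All 4 muscle sheath markers rose (median 0.97, summed TPM 8753 and 10769 against 5777 and 4957), as did both haemocyte markers and 1 of 2 fat body markers. All 4 eggshell markers fell. They were uneven within genotypes, at 2179 and 229 TPM summed in *aramis* RNAi ovaries, against 14610 and 50152 TPM in *bam* RNAi ovaries. Eggshell mRNA was thus present in the *bam* RNAi libraries, nearly all of it from *Vm26Aa*, *Vm26Ab* and *Vm34Ca*. The remaining marker, *Cp36*, had only 6 and 7 counts in *aramis* RNAi ovaries, against 15 and 41 in *bam* RNAi ovaries. Neither the stage of the germ cells nor the amount of egg chambers in each library was measured. In bulk ovary RNA, fewer germ cells and less of an mRNA per germ cell cannot be told apart, and the part of these shifts in the values below was not tested.

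Most piRNA pathway mRNAs were lower in *aramis* RNAi ovaries. A gene was called changed at an adjusted p under 0.05 in edgeR's quasi-likelihood test, adjusted over all 9115 genes tested, and all 32 members passed the filter on low counts. Of these, 27 fell, 2 (*tud* and *mino*) rose, and 3 (*tapas*, *fs(1)Yb* and *papi*) did not pass the test. Over all genes tested 50.4% were called, 25.0% lower and 25.4% higher, so the share of members called lower, 84.4%, stood above the background. The median log2 fold change of the members was -0.88, against -0.02 for all genes tested. After scaling by library size and TMM (the trimmed mean of M-values), both *aramis* RNAi libraries lay below both *bam* RNAi libraries for 28 members and above them for 2, and the libraries overlapped for *fs(1)Yb* and *papi*. The background shares of these orders were 40.0% and 37.2% of genes tested. Among the members, the ratio of the higher to the lower replicate in normalised CPM had a median of 1.10 in *aramis* RNAi ovaries and 1.06 in *bam* RNAi ovaries, with a maximum of 2.50 for *moon* in *aramis* RNAi ovaries.

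**Figure D1:**
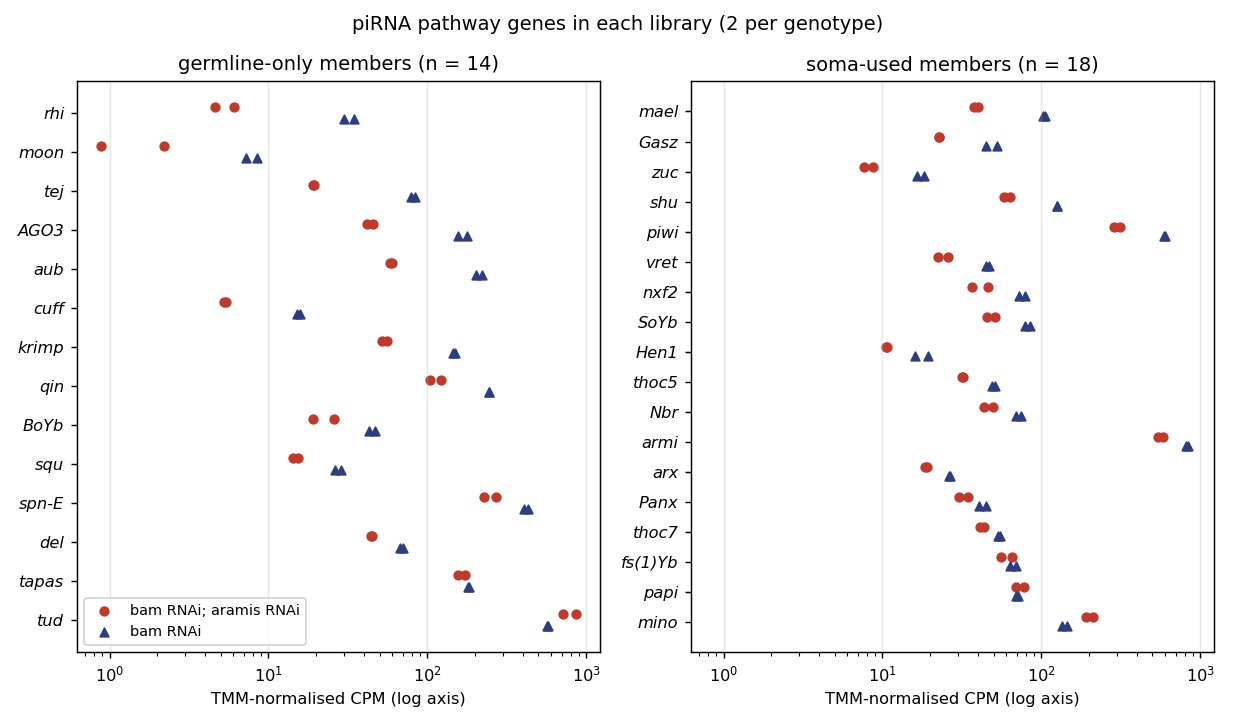
TMM-normalised CPM of each member (log axis) in the 2 *aramis* RNAi libraries (circles) and the 2 *bam* RNAi libraries (triangles), with germline-only members on the left and soma-used members on the right, each ordered by fold change. Circles lie left of triangles for 28 of 32 members and right of them for *tud* and *mino*.

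Germline-only members fell further than soma-used members by their medians, although the share called was alike. Of 14 germline-only members 12 fell, 1 rose and 1 did not pass the test, with a median log2 fold change of -1.28 and a range from -2.59 to 0.47. Of 18 soma-used members 15 fell, 1 rose and 2 did not pass, with a median of -0.69 and a range from -1.42 to 0.52. A fall of over 2-fold was called for 8 of 14 germline-only and 4 of 18 soma-used members, against 6.71% of all genes tested. A fall of over 4-fold was called for 3 germline-only members (*rhi*, *moon* and *tej*) and no soma-used member, against 2.47% of all genes tested, and no member rose over 4-fold, as 0.889% of all genes did. Since members are chosen genes and not replicates, the difference between the classes was not tested, and the ranges of the classes overlap. The classes were also set with earlier results of these data known, so the difference is a description. Without replicate 2 of *bam* RNAi ovaries, 9 germline-only and 8 soma-used members were called lower and none higher. Without replicate 1 of *bam* RNAi ovaries, 10 and 11 were called lower, and 7 members lost their call (*moon*, *BoYb*, *armi*, *arx*, *Panx*, *thoc7* and *tud*), while none of those called changed sign. The log2 fold change of *moon* was -1.83, short of 4-fold, without replicate 2 of *aramis* RNAi ovaries and -3.14 without replicate 1.

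The PIWI proteins differed in this way. *piwi*, which encodes the nuclear PIWI protein of germline and soma, had 3534 and 3248 counts in *aramis* RNAi ovaries, against 7592 and 8494 in *bam* RNAi ovaries. It fell to 0.505-fold (log2 fold change -0.99 ± 0.09, SE, edgeR adjusted p = 3.6e-04). *aub*, which encodes the cytoplasmic PIWI protein that cleaves transposon mRNA, had 678 and 658 counts, against 2600 and 3130 in *bam* RNAi ovaries. *AGO3*, which encodes its ping-pong partner, had 514 and 474 counts, against 2009 and 2515 in *bam* RNAi ovaries. The genotypes did not overlap for any of these genes, and the log2 fold changes of the germline-only pair, -1.84 ± 0.08 (SE) for *aub* and -1.93 ± 0.10 (SE) for *AGO3*, differed by less than the sum of their errors. In TPM, which allows genes of different length to be compared, the ratio of *aub* to *piwi* was 0.196 and 0.206 in *aramis* RNAi libraries, against 0.349 and 0.376 in *bam* RNAi libraries. The ratio of *AGO3* to *aub* was 0.718 and 0.683, against 0.732 and 0.761. Thus the libraries separated further in the first ratio than in the second. With 2 libraries against 2, an exact two-sided permutation test of such a ratio cannot give a p under 0.333, so ratios are given as descriptions. *piwi* (FBgn0004872) and *aub* (FBgn0000146) lie on chromosome arm 2L and *AGO3* (FBgn0250816) on 3L. The exons of *piwi* share 191 bases with *SCAR* and those of *aub* 79 bases with *TTLL4A*, on the opposite strand in each case.

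Among genes of cluster transcription and export all 6 fell, by unequal amounts. *rhi* encodes the heterochromatin protein 1 homologue that marks germline piRNA clusters, and its gene (FBgn0004400) lies on the minus strand of 2R from 17628491 to 17633516 in dm6 coordinates. It had 52 and 69 counts in *aramis* RNAi ovaries, against 385 and 490 in *bam* RNAi ovaries. This was the largest fall of the 32 members, with a log2 fold change of -2.59 ± 0.18 (SE, edgeR adjusted p = 2.6e-04), and the only one below the range of the germline markers. It differed from *otu*, the lowest of these markers at -2.35 ± 0.10 (SE), by less than the sum of their errors. Without replicate 1 of *aramis* RNAi ovaries the log2 fold change of *rhi* was -2.39. *moon*, which encodes the transcription factor IIA paralogue that starts cluster transcription, had 25 and 10 counts, against 94 and 121 in *bam* RNAi ovaries. Its log2 fold change of -2.35 was the least precise of the members (standard error 0.41), and it had both the lowest counts and the widest spread between replicates. *cuff*, which encodes a protein that protects cluster transcripts from termination, had 61 and 60 counts, against 196 and 226 in *bam* RNAi ovaries (log2 fold change -1.54). Its exons share 36 bases, 2.78% of their length, with *ERp60* on the opposite strand. *ERp60* had between 10032 and 14687 counts in each library, and the strand setting of the counting is not given. *del* encodes the protein that links Rhino to Moonshiner, and fell far less than its partners. It had 503 and 509 counts, against 914 and 955 in *bam* RNAi ovaries, a log2 fold change of -0.63 ± 0.09 (SE). The TPM ratio of *rhi* to *del* was 0.217 and 0.284 in *aramis* RNAi libraries, against 0.883 and 1.08 in *bam* RNAi libraries, and that of *cuff* to *del* was 0.308 and 0.300, against 0.545 and 0.602. The mRNAs of the proteins that act together as the Rhino, Deadlock and Cutoff complex thus differed in their falls by more than their standard errors. *thoc5* and *thoc7* encode subunits of the THO complex, which packages nascent transcripts for export in all cells. They had log2 fold changes of -0.65 ± 0.09 (SE) and -0.35 ± 0.09 (SE), with 465 and 495 counts of *thoc7* in *aramis* RNAi ovaries, against 706 and 756 in *bam* RNAi ovaries.

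Of 8 nuage and Tudor-domain genes 6 fell, 1 did not pass the test and 1 rose. *tej*, which encodes a Tudor-domain nuage protein, had 221 and 218 counts in *aramis* RNAi ovaries, against 1021 and 1189 in *bam* RNAi ovaries (log2 fold change -2.07 ± 0.10, SE, edgeR adjusted p = 1.8e-04). *krimp*, whose protein brings Aubergine and Argonaute3 together, fell by 1.45 on the log2 scale, and *qin*, whose protein keeps ping-pong between unlike partners, fell by 1.11. *BoYb*, the germline member of the Yb family, fell by 0.999, *squ*, which encodes a nuage protein, by 0.88, and *spn-E*, which encodes a nuage RNA helicase, by 0.74. *spn-E* was the most abundant of this group in *bam* RNAi ovaries, at 123 ± 21.9 TPM in *aramis* RNAi ovaries and 223 ± 1.32 TPM in *bam* RNAi ovaries (SD, n = 2 each). *tapas* encodes a protein related to Tejas, and its change did not pass the test. It had 1957 and 1773 counts, against 2341 and 2614 in *bam* RNAi ovaries, with a log2 fold change of -0.15 ± 0.08 (SE, edgeR adjusted p = 0.154). *tud*, which encodes the multiple Tudor-domain protein of nuage and germ plasm, had 9787 and 8113 counts, against 7274 and 8185 in *bam* RNAi ovaries. Its raw counts overlapped between genotypes in replicate 2, but after scaling both *aramis* RNAi libraries were higher. Its log2 fold change was 0.47 ± 0.11 (SE, edgeR adjusted p = 0.0142), and it lay 2.50 above the median of the germline markers. The rise was not called without replicate 1 or without replicate 2 of *bam* RNAi ovaries (edgeR adjusted p = 0.143 and 0.127). The exons of *squ* share 223 bases with *grp* on the same strand, 16.2% of its exon length, so part of its count could not be assigned with certainty.

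Phased processing and loading genes are used in both tissues of the ovary, except *fs(1)Yb*, and 6 of 9 fell, 1 rose and 2 did not pass the test. The largest falls were those of *Gasz*, *zuc* and *shu*. *Gasz* encodes a mitochondrial scaffold and had 258 and 258 counts in *aramis* RNAi ovaries, against 580 and 747 in *bam* RNAi ovaries (log2 fold change -1.10 ± 0.12, SE). *zuc*, which encodes the endonuclease of piRNA 3′ end formation, fell by 1.09, and *shu*, which encodes a co-chaperone for loading of PIWI proteins, by 1.03. *vret*, whose Tudor-domain protein joins these steps, fell by 0.92. *armi*, which encodes the RNA helicase that carries precursors to mitochondria, had 6577 and 6109 counts, against 10799 and 11519 in *bam* RNAi ovaries, the highest level of the members in each genotype (309 ± 33.4 TPM and 494 ± 29.2 TPM, SD, n = 2 each). Its log2 fold change of -0.56 ± 0.09 (SE, edgeR adjusted p = 0.00324) was smaller than that of *piwi*, and was not called without replicate 1 or without replicate 2 of *bam* RNAi ovaries (adjusted p = 0.0595 and 0.0532). Nearly all of its exon length, 99.6%, is also annotated for *CG46463* on the same strand, which was not analysed here. *papi*, whose Tudor-domain protein holds PIWI complexes at mitochondria, had 781 and 879 counts, against 916 and 988 in *bam* RNAi ovaries, and overlapped between genotypes after scaling (log2 fold change 0.06 ± 0.09, SE, edgeR adjusted p = 0.618). *mino*, which encodes a mitochondrial glycerol-3-phosphate acyltransferase, had 2409 and 2158 counts, against 1870 and 1927 in *bam* RNAi ovaries. It rose, with a log2 fold change of 0.52 ± 0.09 (SE, edgeR adjusted p = 0.00290), a call lost without replicate 2 of *bam* RNAi ovaries (adjusted p = 0.0680). An antisense RNA gene, *asRNA:CR46452*, covers 1452 bases of its exons and was not analysed here, and the strand setting of the counting is not given in the sources used here.

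The Yb family sets a soma-only gene beside relatives of the germline. *fs(1)Yb*, whose protein builds the Yb body of somatic cells, had 737 and 634 counts in *aramis* RNAi ovaries, against 900 and 907 in *bam* RNAi ovaries. The genotypes overlapped after scaling, and its log2 fold change of -0.14 ± 0.11 (SE, edgeR adjusted p = 0.316) did not pass the test. This value lay below the median of the 9 somatic ovary markers, 0.61. It was within their range, from -1.08 to 1.14, only through *tj*, which sets the lower edge. The next lowest of these markers, *eya*, was at 0.14, above *fs(1)Yb*. *SoYb*, found in both tissues, had 583 and 516 counts, against 1023 and 1206 in *bam* RNAi ovaries (log2 fold change -0.76 ± 0.10, SE). *BoYb*, found in germ cells, had 293 and 216 counts, against 602 and 614 in *bam* RNAi ovaries (log2 fold change -0.999 ± 0.16, SE). By value, the germline-only gene was lowest, then the shared gene, then the soma-only gene. *BoYb* and *SoYb* differed by less than the sum of their standard errors, whereas *fs(1)Yb* stood apart from each of them by more than that sum. The TPM ratio of *fs(1)Yb* to *SoYb* was 1.77 and 1.72 in *aramis* RNAi libraries, against 1.23 and 1.05 in *bam* RNAi libraries. The 247 exon bases that *SoYb* shares with *CG31875* on the same strand make up 5.03% of its exon length.

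Genes of 3′ end trimming and methylation and of nuclear silencing fell in 6 of 6 cases, mostly by less than 2-fold. Without replicate 2 of *bam* RNAi ovaries only *mael* of these was called, and the edgeR adjusted p was 0.0590 for *Nbr*, 0.0788 for *Hen1*, 0.0734 for *arx*, 0.185 for *Panx* and 0.0625 for *nxf2*. *Nbr*, which encodes an exonuclease that trims piRNAs and microRNAs, had 563 and 498 counts in *aramis* RNAi ovaries, against 891 and 1065 in *bam* RNAi ovaries (log2 fold change -0.62). The exons of *Nbr* share 268 bases with *Pld3* on the opposite strand, 11.5% of their length. *Hen1*, which encodes the methyltransferase of piRNA 3′ ends, had 120 and 122 counts, against 207 and 277 in *bam* RNAi ovaries (log2 fold change -0.73). The exception in size was *mael*, which encodes a protein needed for silencing downstream of Piwi. It had 454 and 427 counts, against 1319 and 1505 in *bam* RNAi ovaries, a log2 fold change of -1.42 ± 0.09 (SE, edgeR adjusted p = 2.5e-04). This was the largest fall of the soma-used members and the only one inside the range of the germline markers. Its distance from *nos*, the marker at the upper edge of that range, was less than the sum of their standard errors. The exons of *mael* share 246 bases with *CG14451* on the opposite strand, 11.4% of their length. *Panx* and *nxf2* encode subunits of the complex that acts with Piwi on nascent transcripts, and *arx* encodes Asterix, a binding partner of Piwi. *Panx* had 394 and 342 counts, against 523 and 637 in *bam* RNAi ovaries, the smallest fall of the group (log2 fold change -0.39 ± 0.12, SE, edgeR adjusted p = 0.0292). *nxf2* had a log2 fold change of -0.88 ± 0.13 (SE) and *arx* one of -0.50 ± 0.11 (SE). DESeq2 did not call *Panx* (adjusted p = 0.0915), *arx* (0.0656) or *thoc7* (0.0926).

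**Figure D2:**
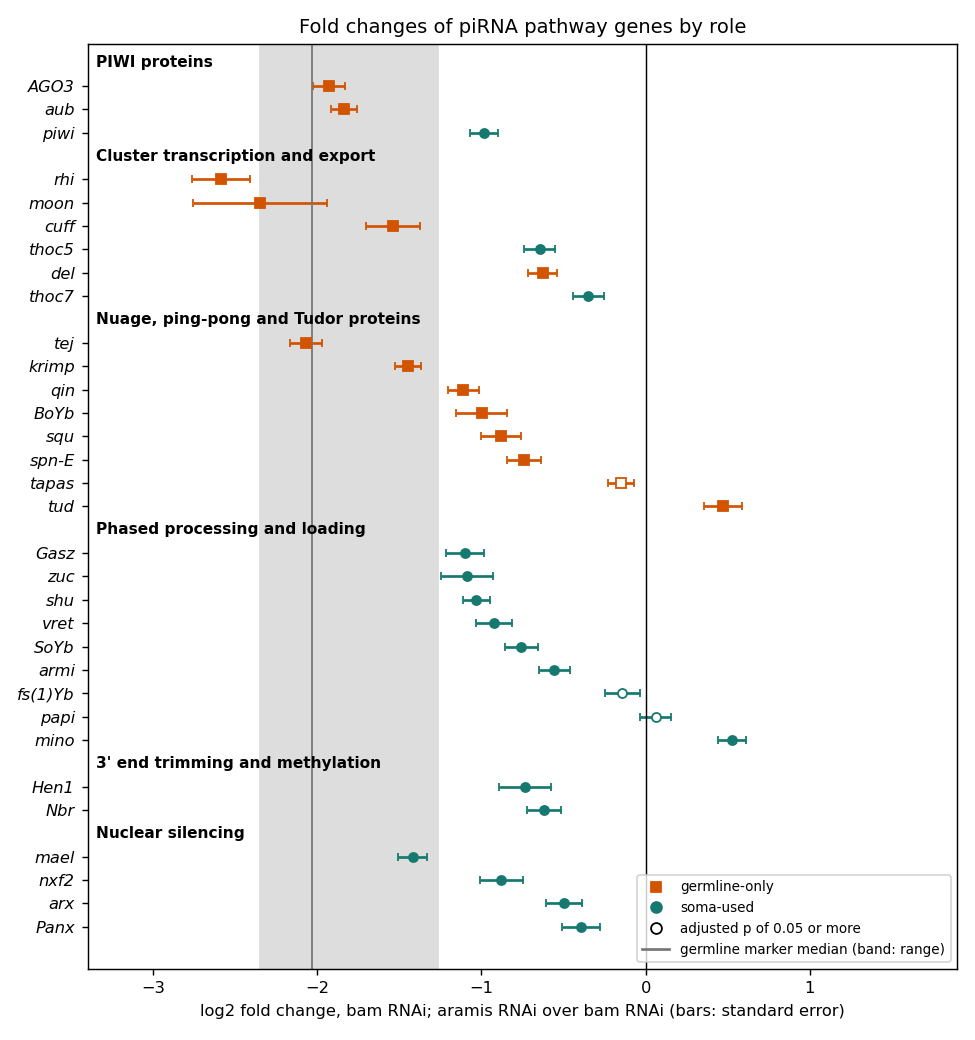
Log2 fold change of each member, *aramis* RNAi over *bam* RNAi ovaries, with its standard error (bars), grouped by role. Squares are germline-only and circles soma-used members, open symbols did not pass the test, and the grey band spans the 6 tested germline markers, from -2.35 to -1.26. The band holds 6 of 14 germline-only members and 1 of 18 soma-used members.

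Set beside germline markers outside the pathway, members spread over a wider range, but 32 members were set against 6 markers, and a range widens with the number of genes. The markers ran from -2.35 to -1.26 on the log2 scale. These edges carry errors too. *rhi* and *moon* lay within the summed standard errors of *otu*, the lowest marker, and *mael*, *qin*, *Gasz* and *zuc* within those of *nos*, the highest. Of the 14 germline-only members, 1 lay below this range, 6 lay within it (*moon*, *tej*, *AGO3*, *aub*, *cuff* and *krimp*) and 7 lay above it. Of the 18 soma-used members, 1 lay within the range and 17 lay above it, and none of the members reached the median of the somatic ovary markers, 0.61. The fold changes did not follow the assigned class of a gene alone. *spn-E*, *del*, *tapas* and *tud* were placed in the germline-only class. Their log2 fold changes, from -0.74 to 0.47, nevertheless lay above that of *piwi*, at -0.99, by more than the sum of the standard errors. Whether ovarian soma expresses these genes was not tested.

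**Figure D3:**
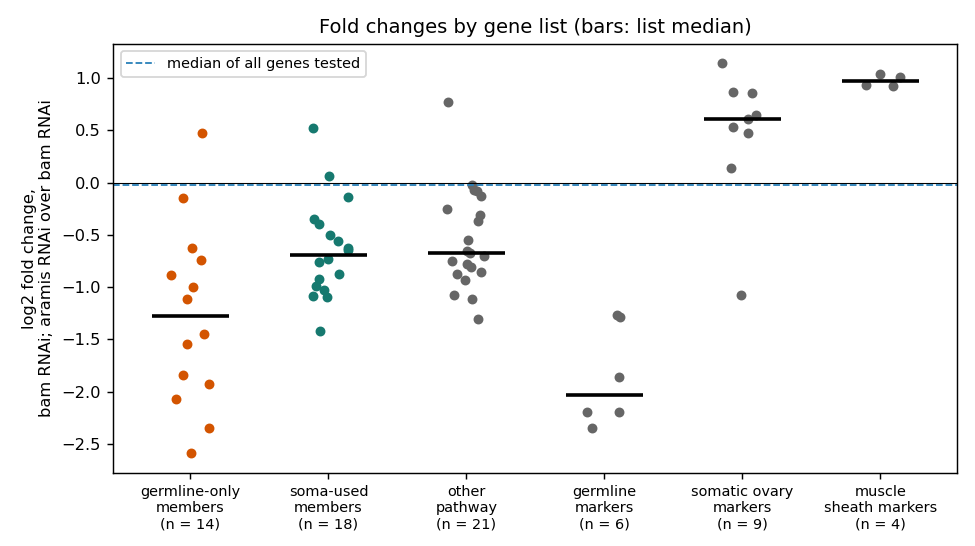
Log2 fold change, *aramis* RNAi over *bam* RNAi ovaries, of the genes in each list (points) with the list median (black bar) and the median of all genes tested (dashed line). The medians are -1.28 for germline-only members, -0.69 for soma-used members, -0.67 for other pathway genes, -2.03 for germline markers, 0.61 for somatic ovary markers and 0.97 for muscle sheath markers.

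Levels per length changed their order between the genotypes. The median of the 14 germline-only members was 31.3 ± 2.53 TPM in *aramis* RNAi ovaries and 99.98 ± 3.13 TPM in *bam* RNAi ovaries (SD, n = 2 each). For the 18 soma-used members it was 40.6 ± 5.28 TPM in *aramis* RNAi ovaries and 66.1 ± 0.686 TPM in *bam* RNAi ovaries. The germline-only median was therefore the lower of the pair in *aramis* RNAi ovaries and the higher in *bam* RNAi ovaries, in each library. Summed over the members, the TPM ratio of germline-only to soma-used genes moved less, at 0.554 and 0.522 in *aramis* RNAi libraries against 0.617 and 0.647 in *bam* RNAi libraries. *armi* and *piwi* ranked 1 and 2 in each genotype. *tud* ranked 3 in *aramis* RNAi ovaries and 6 in *bam* RNAi ovaries, at 206 ± 38.7 TPM and 161 ± 3.43 TPM (SD, n = 2 each), a difference of little more than the larger SD. *aub* ranked 13 in *aramis* RNAi ovaries and 5 in *bam* RNAi ovaries, at 44.9 ± 3.47 TPM and 174 ± 4.61 TPM, and *tej* ranked 25 and 11. *moon* was the lowest in each genotype, at 4.44 ± 2.89 TPM and 24.2 ± 1.79 TPM, and in *aramis* RNAi ovaries it did not differ from *rhi*, at 7.75 ± 1.11 TPM, beyond their spread.

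**Figure D4:**
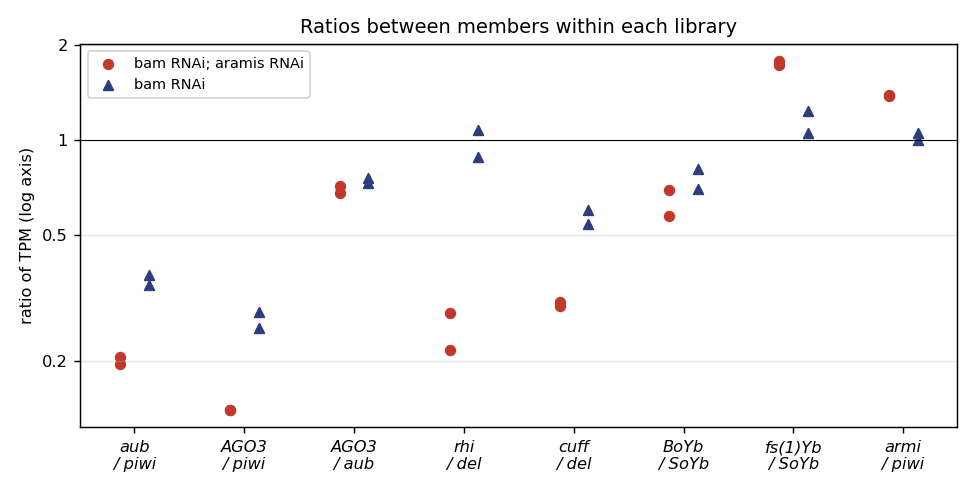
Ratio of TPM between pairs of members within each library (log axis), for *aramis* RNAi (circles, left) and *bam* RNAi (triangles, right). The ratios of *aub* and *AGO3* to *piwi* and of *rhi* and *cuff* to *del* are lower in both *aramis* RNAi libraries, those of *fs(1)Yb* to *SoYb* and *armi* to *piwi* are higher, and *AGO3* to *aub* differs least.

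Other genes of the pathway were taken as a list of 25, of which 21 were matched and tested. Of these 16 fell, none rose and 5 did not pass the test, with a median log2 fold change of -0.67. The largest falls were those of *nxf3*, which encodes the exporter of germline cluster transcripts, at -1.30 ± 0.11 (SE), and *kipf*, which encodes the zinc finger protein that guides Rhino, at -1.12 ± 0.12 (SE). *Hel25E*, which encodes the RNA helicase of the export complex, had 2083 and 2041 counts in *aramis* RNAi ovaries, against 3714 and 4350 in *bam* RNAi ovaries. *egg*, which encodes the histone H3 lysine 9 methyltransferase of Piwi silencing, fell by 0.75, while its cofactor *wde* was at -0.08 ± 0.08 (SE, edgeR adjusted p = 0.432). *tj* encodes the transcription factor that activates *piwi* in somatic gonad cells and was also on the somatic marker list. It had 2024 and 1736 counts, against 4197 and 5345 in *bam* RNAi ovaries (log2 fold change -1.08 ± 0.11, SE, edgeR adjusted p = 5.7e-04). Among the 9 listed somatic ovary markers only *tj* fell, while all 4 eggshell markers, listed apart, fell as well. *piwi*, at -0.99, stood beside falls of *tj*, of germline markers and of eggshell markers. It also stood beside rises of 6 of the 9 somatic ovary markers, whose median was 0.61. The part of each was not tested.

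The members lie on all major chromosome arms, with 11 on 2R, 8 on 2L, 7 on 3L, 4 on 3R and 2 on X. Germline-only members number 6 on 2R, 3 on 2L, 2 on 3L, 2 on 3R and 1 on X. The ranges of exon length overlap, with a median of 3098.5 bases (range 811 to 8830) for germline-only and 2240 bases (range 892 to 4909) for soma-used members.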

How the data were processed

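The authors deposited whole-number counts of reads per gene for 17023 FlyBase identifiers in each of 4 libraries, not normalized. The submitters' processing notes name HISAT2 2.1.0, featureCounts 1.4.6, DESeq2 1.24.0 and build dm6, without roles. The annotation release, strand setting and treatment of multiply mapped reads are not given in the sources used here. Groups and replicate numbers were taken from the sample labels. Symbols, positions and exon lengths came from Ensembl release 115 (BDGP6, dm6 coordinates), which matched 16647 identifiers. The other 376, with between 6.14% and 6.32% of counts, were kept in count tests and left out of TPM, which used the union of exons.

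Counts were tested with edgeR 4.0.16 in R 4.3.3 (TMM, filterByExpr with a minimum count of 10, quasi-likelihood test without a replicate block, Benjamini-Hochberg adjustment over 9115 genes). Standard errors are those implied by the F statistic. Fold changes of different genes were set against the sum of their standard errors as a description, which is not a test. The functions were checked on simulated data. Counts of the replicates differed beyond sampling noise (chi-square divided by its degrees of freedom, 15.4 in *aramis* RNAi and 27.2 in *bam* RNAi ovaries), so each was counted. Alternatives were DESeq2 1.42.0, RLE size factors, no filter (at least 1 count), a replicate block, each library left out, and the longest transcript as length. All 32 members are named. Counts per library are given for *aub*, *AGO3*, *rhi*, *piwi*, *armi*, *fs(1)Yb* and the lowest and highest fold change of each role group, and for others where they are described. The members, classes and lists were chosen with earlier results of these data known. Of the other pathway genes, *vas*, *boot*, *sov* and *flam* were not analysed here. No sequence was used, so promoters and proteins are not shown. TPM, lists and ratios were computed in Python 3.11.15 with pandas 2.3.3.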

Additional observations from a re-analysis of the deposited data

How the results depend on the processing

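Under RLE size factors, no filter on low counts and the replicate block, all 32 members kept their direction and their call, and the class counts stayed at 12 germline-only and 15 soma-used members lower and 1 of each class higher. RLE shifted the median log2 fold change of all genes by 0.02. DESeq2 called 12 germline-only and 12 soma-used members lower. Same-numbered libraries deviated with a correlation of 0.03 across genes and the labels give no shared origin, so the numbers were not used to pair samples. With the replicate block 4430 genes were called, against 4590 without it, and no member's call changed. With each library left out in turn, a group of 1 library is assumed to vary like the other. The members called lower then ran from 9 to 12 (germline-only) and from 8 to 14 (soma-used), those called higher from 0 to 1 in each class, and all genes called from 1980 to 3676, with fewer residual degrees of freedom. The lowest counts came without replicate 2 of *bam* RNAi ovaries, and the rise of *tud* was not called without either *bam* RNAi replicate (adjusted p = 0.143 and 0.127). *papi*, which was not called, ran from -0.019, without replicate 2 of *aramis* RNAi ovaries, to 0.152, without replicate 1. *thoc7* and *Panx* also lost their call without 1 *aramis* RNAi library each (replicate 1, adjusted p = 0.0883, and replicate 2, adjusted p = 0.144). With the longest transcript as length, 29 of 64 TPM values moved by more than the replicate SD, which rests on 2 libraries. Some of these values, such as those of *tej*, *krimp* and *cuff* in *bam* RNAi ovaries, belong to members whose longest transcript equals their exon union. For these only the scaling to the library changed. *moon* had the fewest counts of the members, 10 to 25 in *aramis* RNAi ovaries. With 2 libraries per genotype no sample could be tested as an outlier.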
